A study of Mus musculus with 2 samples.

Results

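GATA4 occupied sites (OS) that hold no GATA core in the reference sequence are described here. They were chosen from the 4409 OS that both peak callers found in adult mouse liver, by one rule: the mm9 sequence from the first to the last base of the site had no exact match, on either strand, to WGATA or to GATAR, where W is A or T and R is A or G. The rule found 315 of 4409 OS (7.14%, Wilson 95% interval 6.42 to 7.94), and the other 4094 OS held a core. The rule names 2 spellings of 5 bases, so a bare GATA can remain. It did in 26 of the 315 OS (8.25%), in 25 of them with C or G before it and C or T after it inside the site. These OS therefore lacked WGATA and GATAR, not every GATA.

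GATA4 was precipitated with the antibody C-20 (sc-1237) from whole liver of mice of the strain C57BL/6 x Sv129, aged 2 to 3 months per the labels, and the enriched DNA was sequenced. DNA of the same tissue that was not precipitated served as input. By the study's methods, each of 2 biological replicates pooled the livers of 2 mice, and peaks were called on each replicate and on their merged reads before 1 list per caller was made by the concordance of ranks between replicates. The mice carried no targeted allele and had no treatment in the labels. Whole liver holds hepatocytes, sinusoidal endothelium and other cells, and the lists do not tell which of them gave a site. The deposited lists hold 1 set of peaks for both replicates, so sites were the units of every test, and p-values and intervals cover the spread between sites, not between mice. Every site has the same score, so its number in the common list stood in for its strength. The study's methods rank SPP peaks on their signal and those of MACS2 on their p-value when replicates are compared, but whether the deposited numbers follow that order is not given in the sources used here. The sequence is that of the C57BL/6 reference, and whether the Sv129 chromosomes of these mice carry a core at these sites was not tested.

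GATA factors are zinc finger proteins named after the letters they bind, and the classical motif is WGATAR. GATA4 acts in the endoderm that forms the liver, in the heart and in the gonads, and in adult liver it is found in hepatocytes and in sinusoidal endothelial cells. ChIP also recovers DNA that a factor reaches through other proteins or through a site with other letters, so a part of any list of occupied sites commonly lacks the textbook motif.

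The clearest feature of the OS without a core was 1 changed letter. When each base of GATA was changed in turn inside WGATAR, giving 12 single-base forms, WGATTR was the only form called more frequent in these OS than in control windows. WGATTR, called the T form here, was present in 201 of 315 OS (63.8%, 58.4 to 68.9). The match nearest to the midpoint is shown for 12 such OS, with 20 bases on either side, because these letters carry the main result. They are those of the list up to OS 822, with OS 785 left out. Each is read on the strand of the form, capitals mark that match alone, and the coordinates (mm9, counted from 1) cover the printed stretch.
OS 3, chr2:128792934-128792979, plus strand: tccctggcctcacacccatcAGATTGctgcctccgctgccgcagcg
OS 329, chr4:141722212-141722257, minus strand: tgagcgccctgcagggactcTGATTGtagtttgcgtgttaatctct
OS 334, chr4:59257675-59257720, minus strand: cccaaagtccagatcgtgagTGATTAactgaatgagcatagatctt
OS 399, chr11:85589294-85589339, plus strand: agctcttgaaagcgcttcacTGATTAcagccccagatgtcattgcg
OS 473, chr7:108602314-108602359, minus strand: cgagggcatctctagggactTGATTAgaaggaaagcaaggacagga
OS 488, chr13:44161163-44161208, minus strand: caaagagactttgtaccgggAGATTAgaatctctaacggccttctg
OS 503, chr9:102628763-102628808, minus strand: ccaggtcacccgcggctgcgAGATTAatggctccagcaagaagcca
OS 506, chr1:74077763-74077808, minus strand: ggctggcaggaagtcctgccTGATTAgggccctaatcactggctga
OS 612, chr1:155965139-155965184, plus strand: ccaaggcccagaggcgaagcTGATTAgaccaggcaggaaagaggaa
OS 739, chr11:54680408-54680453, minus strand: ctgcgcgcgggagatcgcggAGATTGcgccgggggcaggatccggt
OS 792, chr14:69899014-69899059, minus strand: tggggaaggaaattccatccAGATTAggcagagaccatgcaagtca
OS 822, chr12:112616012-112616057, plus strand: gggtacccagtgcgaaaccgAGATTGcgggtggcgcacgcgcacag

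For comparison, the classical motif is shown in the same way for the first pair of OS in the list, both of which hold WGATAR. OS 1 lies on the plus strand with the motif 17 bp before its midpoint, and OS 2 has it 17.5 bp after its midpoint.
OS 1, chr10:68681930-68681975, plus strand: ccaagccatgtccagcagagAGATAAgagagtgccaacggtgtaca
OS 2, chr11:105996711-105996756, plus strand: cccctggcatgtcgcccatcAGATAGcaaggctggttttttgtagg

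The control for each OS was the window of equal width 5000 bp to its right. The T form was found in 75 of the 315 windows (23.8%, 19.4 to 28.8), against 201 of the 315 OS. It was in the OS alone in 157 pairs and in the window alone in 31 pairs (exact McNemar test, two-sided, p adjusted by Benjamini-Hochberg over the 12 forms 2.1e-20). The other 4094 OS held it in 1495 cases (36.5%, 35.1 to 38.0), fewer than the OS without a core (Fisher's exact test, two-sided, adjusted p 6.6e-20). The OS with a core also exceeded their own windows, though by less. Of 4092 pairs, 36.5% of sites and 27.3% of windows held the T form.

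The remaining forms did not share this pattern. There were 6 forms that were less frequent in the OS without a core than in their windows. They were all 3 forms with another first base (such as WTATAR), both forms with G or T in place of the first A, and WGAAAR, with shares of 9.21% to 35.9% in the OS and 23.8% to 53.7% in the windows. The OS with a core were also lower than their own windows in these 6 forms. Their shares were 12.8% to 48.3%, against 29.4% to 58.3% in the windows (exact McNemar tests, largest adjusted p 2.0e-09). The rule cleared the OS of words rich in A and T, but not the windows. With windows lacking a core, 4 forms were called in either direction in place of 7. The other 5 of the 12 forms were not called in either direction in the OS without a core. WGATCR, which changes the same base as the T form, was in 13.0% of OS and 12.1% of windows (adjusted p 0.80), and WGATGR was in 29.8% and 34.0% (adjusted p 0.36). The T form apart, each form also had a lower share in these OS than in the other OS.

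**Figure D1:**
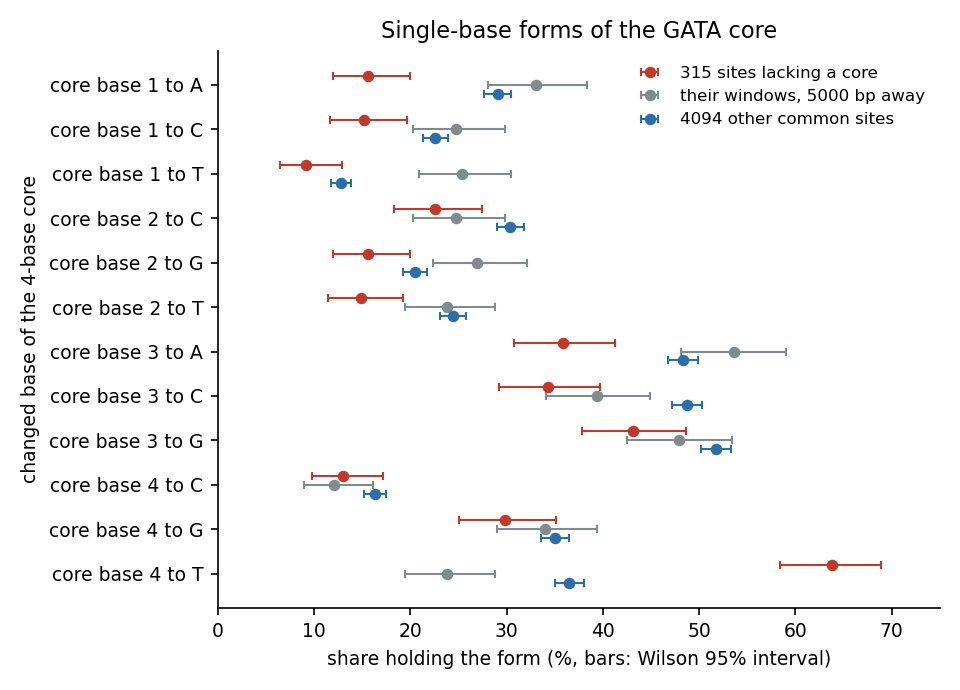
Share of sites holding each of the 12 single-base forms of the core, by the base of the 4-base core that was changed (vertical axis) and the percent of sites (horizontal axis, bars are Wilson 95% intervals), for the 315 OS without a core, their windows and the 4094 other OS. The change of core base 4 to T stands at 63.8% in the OS without a core, above 23.8% in their windows and 36.5% in the other OS.

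All 4 spellings of the T form exceeded their windows. AGATTA was in 88 OS and 25 windows, TGATTA in 61 and 20, AGATTG in 62 and 22, and TGATTG in 40 and 22 (exact McNemar tests, p adjusted over the 4 spellings 1.1e-09, 1.4e-06, 6.3e-06 and 0.025). Against the other OS, 3 spellings were more frequent, and TGATTG was not called (12.7% against 10.6%, Fisher's exact test, adjusted p 0.26). The letters of TGATTG followed by G are shared with the inverted CCAAT box of the factor NF-Y. That box, searched as RCCAATS (S is C or G), was found in 27 OS (8.57%) and 25 windows (7.94%).

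The T form sat near the middle of the site. Within 20 bp to the left and to the right of the midpoint there were 18.7 and 21.9 matches per 100 OS without a core, against 4.44 and 5.08 in their windows and 5.64 and 6.30 in the other OS. In the other OS, WGATAR reached 26.8 and 26.3 matches per 100 in the same bins. Beyond 80 bp on either side, the T form in the OS without a core lay between 1.27 and 4.44 per 100 and bin, in the range of their windows (1.27 to 5.40). The median distance from the midpoint to the nearest match was 16.5 bp for the T form in the OS without a core and 18 bp for WGATAR in the other OS. It was 32 bp for the T form in the windows and 35.5 bp for the T form in the other OS. The match had to lie inside the site or window, so width bounds this distance. Windows have the width of their OS, but the other OS were wider (median 193 bp against 148 bp), and width was not taken into account. These are descriptions of position, given with no test.

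**Figure D2:**
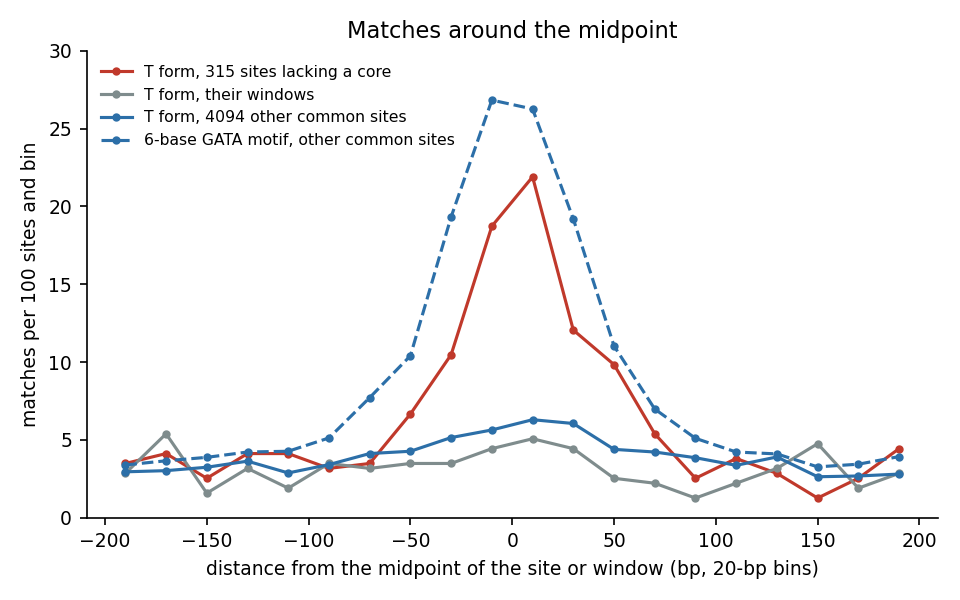
Matches per 100 sites in bins of 20 bp (vertical axis) by distance from the midpoint of the site or window in bp (horizontal axis), for the T form in the 315 OS without a core, their windows and the 4094 other OS, and for the 6-base motif WGATAR in the other OS. The T form in OS without a core stands at 18.7 and 21.9 per 100 in the bins on either side of the midpoint, where WGATAR in the other OS stands at 26.8 and 26.3.

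The bases next to the T form were also like those next to the classical motif. Of 273 matches of the T form in the OS without a core, 105 had C before them (38.5%, 32.9 to 44.3) and 116 had G after them (42.5%, 36.8 to 48.4). WGATAR in the other OS had C before it in 37.4% and G after it in 42.2% of 5704 matches. The T form in the other OS had these neighbours in 32.4% and 31.9% of 1973 matches. In the windows of the OS without a core, the T form had them in 25.3% (17.6 to 34.8) and 28.4% (20.3 to 38.2) of 95 matches. These intervals are wide and overlap those of the T form in the OS without a core. In the windows of the other OS, WGATAR had them in 24.3% and 21.1% of 1726 matches. Matches within a site share it, and no test was run.

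Most OS with the T form held it once. There were 144 OS with 1 match, 44 with 2 and 13 with 3 or more, and 114 had none. OS 334, 612 and 824 held 3 each, and OS 506 held 2.

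The T form was then followed through classes of OS, which were chosen after the 12 forms had been compared. It was in 59 of 94 OS (62.8%) within 1 kb of a transcription start site (TSS) and in 142 of 221 OS (64.3%) further away (Fisher's exact test, p 0.80). In OS with CpG-rich flanks it was in 40 of 68 (58.8%), and in the rest in 161 of 247 (65.2%, p 0.39). OS numbered up to 2204 in the list had it in 70 of 99 cases (70.7%) and those with higher numbers in 131 of 216 (60.6%, p 0.10). In every class the windows were lower, at 16.2% to 29.4%. None of these 3 differences was past 0.05, which does not show that the classes were alike.

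One class did differ. The MACS2 peaks are wider than the SPP peaks whose coordinates the common list keeps, with a median of 636 bp around these OS, and 244 of the 315 MACS2 peaks held WGATA or GATAR beyond the edges of the site. Where the MACS2 peak held no core either, the T form was in 57 of 71 OS (80.3%, 69.6 to 87.9). Where it held one, the T form was in 144 of 244 OS (59.0%, 52.7 to 65.0; Fisher's exact test, p 0.0011, unadjusted, 1 of 4 such class comparisons). The windows of the 2 classes held it in 28.2% and 22.5%. The width of the sites was not taken into account here, and the cause of the difference was not tested.

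**Figure D3:**
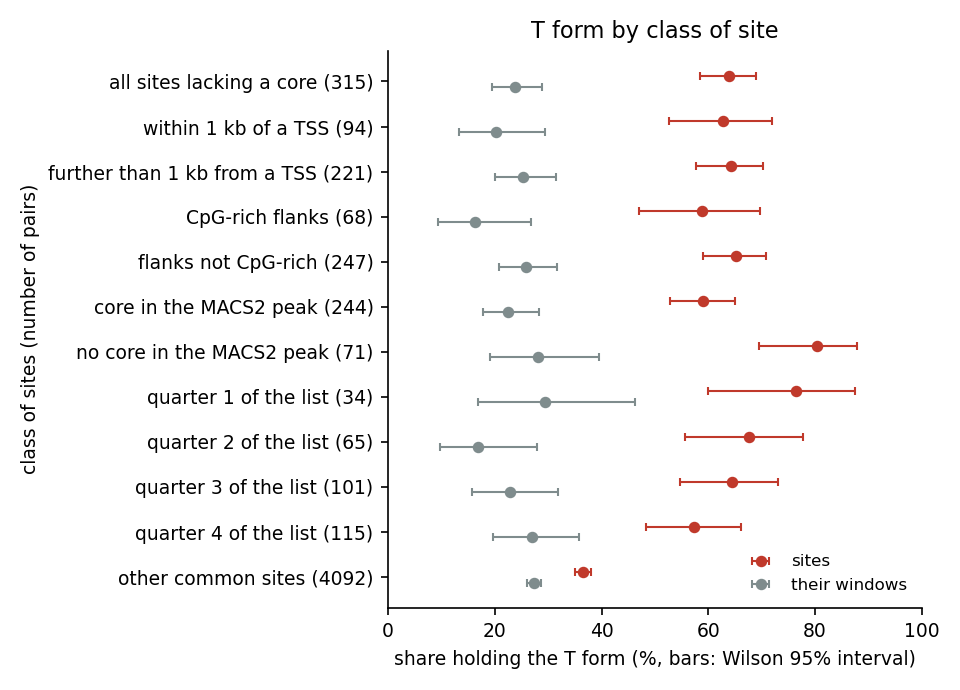
Share of sites holding the T form (horizontal axis, percent, bars are Wilson 95% intervals) for classes of OS without a core and for all other OS (vertical axis, number of pairs in parentheses), in the sites and in their windows. Sites exceed their windows in each class, from 57.4% in the last of 4 equal parts of the list to 80.3% where the MACS2 peak has no core.

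The T form was also counted in peaks that the callers did not share. Of 402 SPP peaks outside the common list, 23 lacked a core (5.72%, against 7.14% of the common OS, Fisher's exact test, p 0.31), and 8 of these 23 held the T form, as did 8 of their windows. Of 1496 MACS2 peaks that met no SPP peak, 66 lacked a core (4.41%, 3.48 to 5.57), and 38 of these held the T form (57.6%) against 30 of their windows (45.5%). MACS2 peaks of this kind had a median width of 632 bp, so their windows meet any 6 letters more often. The difference between these peaks and the common OS was not tested. Among common OS with a 5-base core but no WGATAR, 188 of 439 held the T form (42.8%) against 117 windows (26.7%).

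All 6-base words were searched as well, with each word and its reverse complement taken as 1. Of 2052 words, 270 (13.2%) were more frequent in the OS without a core than in their windows, and 203 were less frequent (exact McNemar tests, adjusted p under 0.05). Of the 270, 187 held a CpG and 9 held GATT, against 0 and 1 of the 203. How many of all 2052 words hold a CpG or GATT was not counted, so these counts have no background share beside them. Against the other OS, 136 words (6.63%) were more frequent, of which 121 held a CpG and 9 held GATT, and 334 were less frequent (Fisher's exact tests). Where a word overlaps a core in the sequence, that occurrence is excluded from the OS without one. The lower words, such as ATAAGA (2.54% against 20.2%), therefore in part restate the rule. In both comparisons 126 words were more frequent, 112 with a CpG, 8 with GATT and 6 with neither.

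The word with the smallest adjusted p against windows was CTAATC, which read on the other strand is GATTAG, the letters of the T form ending in A with a G after it. It was in 83 OS without a core (26.3%), in 13 windows (4.13%) and in 397 other OS (9.70%), with adjusted p 1.1e-12 and 6.8e-13. The letters GATTA are also the core that homeodomain proteins of the bicoid class, such as OTX and PITX, are known to read. Of the other 9 words with the smallest adjusted p against windows, 6 held a CpG and were more frequent, the first being CGCCGC (13.7% of OS and 0.317% of windows). GCTTCC was also more frequent (33.3% and 12.7%), and its complement shares GGAAG with the ETS forms described below. The words TAAAAA and ATAAAA were less frequent. When words were compared with the other OS within 4 classes of GC content of equal size, 33 words were called in place of 470, and 10 of the 14 that were more frequent held GATT on either strand. Here too the share of all words that hold GATT was not counted, so this count has no background beside it.

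CpG-rich flanks and a TSS within 1 kb were more frequent in the OS without a core than in the other OS. The rule clears words rich in A and T, and base composition carries over from a site to its flanks. Neither comparison was therefore independent of the rule, and how much of each difference comes from it was not tested. Flanks were the 250 bp outside each edge of the site, without the site itself. They were called CpG-rich where both together had at least 50% GC and a ratio of observed to expected CpG of at least 0.6. This held for 68 of 315 OS without a core (21.6%, 17.4 to 26.5) and for 285 of 4094 other OS (6.96%, 6.22 to 7.78; Fisher's exact test, p adjusted over 6 comparisons 1.5e-14). Within 5 strata of width the common odds ratio was 3.82 (Cochran-Mantel-Haenszel test). In the flanks the median ratio of observed to expected CpG was 0.28 against 0.23. The median GC content of the site, which counts the bases the rule was applied to, was 55.2% against 49.1%.

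A TSS of GENCODE M1 lay within 1 kb of the midpoint in 94 OS without a core (29.8%, 25.1 to 35.1) and in 696 other OS (17.0%, 15.9 to 18.2; adjusted p 1.4e-07, odds ratio within width strata 2.17). The excess was concentrated close to the start. Within 100 bp there were 53 (16.8%) against 264 (6.45%), and within 50000 bp 271 (86.0%) against 3426 (83.7%, p 0.30). The median distance was 6361 bp against 10886.5 bp. Of the 94 OS within 1 kb, 67 lay upstream of the TSS and 27 downstream, and 61 of the 315 OS were both within 1 kb and in CpG-rich flanks.

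**Figure D4:**
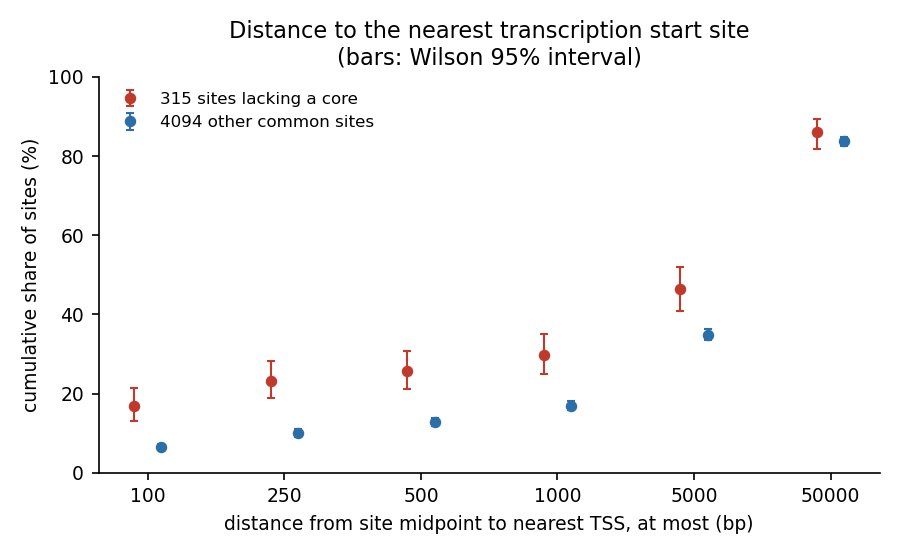
Cumulative share of sites (vertical axis, percent, bars are Wilson 95% intervals) whose midpoint lies at most the given distance in bp from the nearest TSS (horizontal axis, steps not to scale), for the 315 OS without a core and the 4094 other OS. The groups stand apart at 100 bp, with 16.8% and 6.45%, and have overlapping intervals at 50000 bp.

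By annotation, the midpoint of 24 OS without a core (7.62%) fell in a UTR, against 3.88% of the other OS, while introns held 117 (37.1%) against 48.5%. There were 162 intergenic midpoints (51.4% against 44.7%), 4 in coding exons and 8 in non-coding exons. By chromosome, the share of OS without a core ran from 3.33% on chromosome X (1 of 30) to 9.18% on chromosome 10 (29 of 316), and the intervals of these shares overlapped.

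Of 39 motifs searched, which were those of other factors and the bare core, 3 were more frequent in the OS without a core than in their windows, and all are letters of CpG-rich promoters or of ETS proteins. The GC box GGGCGG, read by SP and KLF factors, was in 61 OS (19.4%, 15.4 to 24.1) and 9 windows (2.86%; adjusted p over 39 motifs 9.3e-10). The ETS form CAGGAAG was in 68 OS (21.6%) and 22 windows (6.98%, adjusted p 1.3e-05), and CCGGAAG in 25 OS (7.94%) and 2 windows (0.635%, adjusted p 7.3e-05). Neither ETS form was called against the other OS, of which 22.8% held CAGGAAG (adjusted p 0.98) and 4.71% held CCGGAAG (adjusted p 0.12). The first OS in the list with each was OS 3 for the GC box, OS 329 for CAGGAAG and OS 99 for CCGGAAG. ETS proteins include ETS1, ERG and FLI1, which act in endothelium, and GABPA, which acts at many promoters.

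Against the other OS, the GC box was more frequent (it was in 411 of 4094 other OS, adjusted p 1.0e-04). The CEBP form TTGCNNAA was less frequent (6.35% against 13.1%, adjusted p 0.0041), and so was AGGTCA (16.5% against 24.9%, adjusted p 0.0082), the hexamer read by nuclear receptors. Within the GC classes none of these 3 calls held (adjusted p 0.98, 0.53 and 0.12), and within width strata the GC box alone held (adjusted p 8.1e-09). The T form kept its excess over the other OS within the GC classes, with a common odds ratio of 4.49 (p 4.9e-35). Motifs of the hepatocyte factors were not called against windows: the FOXA form TRTTTAC was in 19 OS and 18 windows, and the HNF4 form CAAAGTCCA in 2 and 1. Absence of these letters says nothing of the factors themselves.

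The T form and the promoter letters overlapped in part. There were 42 OS with both the T form and a GC box, and 58 with the T form and an ETS form. OS 3 and OS 739 are shown as examples of OS in CpG-rich flanks that hold the T form 2 times each. At most the central 240 bases are printed on the plus strand (mm9), and capitals mark the T form (WGATTR or its complement), GGGCGG and its complement, and the ETS forms.
OS 3, chr2:128792843-128793082, plus strand: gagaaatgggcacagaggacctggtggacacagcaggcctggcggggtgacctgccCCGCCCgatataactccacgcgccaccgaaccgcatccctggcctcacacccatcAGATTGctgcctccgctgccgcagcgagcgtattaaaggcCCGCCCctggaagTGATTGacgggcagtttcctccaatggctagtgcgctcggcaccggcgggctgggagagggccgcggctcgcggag
OS 739, chr11:54680310-54680549, plus strand: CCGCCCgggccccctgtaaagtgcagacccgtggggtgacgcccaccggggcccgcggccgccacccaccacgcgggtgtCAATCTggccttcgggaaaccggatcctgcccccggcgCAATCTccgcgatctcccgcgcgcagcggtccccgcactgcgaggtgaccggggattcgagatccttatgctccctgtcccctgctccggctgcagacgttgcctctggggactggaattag

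No difference from windows was called for a core just beyond the edge of the site. Within 100 bp beyond either edge, WGATA or GATAR was found for 179 OS (56.8%) and for 171 windows (54.3%; exact McNemar test, p 0.58). Within 20 bp the counts were 81 and 62 (p 0.096), and within 200 bp 241 and 261 (p 0.054). Against the other OS, a core within 20 bp of the edge was more frequent for the OS without one (25.7% against 15.4%, Fisher's exact test, p 7.1e-06, odds ratio within width strata 1.73), while within 100 bp the difference was not called (51.7% in the other OS, adjusted p 0.12). MACS2 peaks around these OS held a core in 77.5%, and the same peaks moved 5000 bp to the right held one in 283 of 315 (89.8%). When 320 bp around the midpoint were scanned, 143 OS held a core (45.4%) against 215 windows (68.3%). Both of these comparisons include the stretch that the rule had cleared, which lowers the share around the OS by construction, and nothing is read from them.

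The OS without a core had a median width of 148 bp (80 to 414) against 193 bp for the other OS. The share of sites without a core differed between classes of width, and the cause was not tested. Of sites 80 to 120 bp wide, 15.3% lacked a core, against 65.9% of their windows. Of sites 121 to 160 bp wide, 8.34% lacked one (windows 56.7%), and of those 161 to 200 bp wide, 5.76% (windows 47.9%). The share was 2.64% at 201 to 319 bp (windows 38.5%) and 5.56% at 320 to 631 bp (windows 26.9%). Over all widths 45.1% of 4407 windows lacked a core. Of the 315 OS, 16 had the smallest width of 80 bp, among them OS 2340 near Fgd5, and the widest was OS 772 at 414 bp.

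OS without a core lay later in the list. Of the first 441 sites of the common list, 6 lacked a core (1.36%, 0.625 to 2.94), and of the last 440 sites 50 did (11.4%, 8.73 to 14.7). In all, 216 of the 315 (68.6%) had a number above 2204, the middle of the list, against 48.6% of the other OS (Fisher's exact test, adjusted p 2.1e-11, odds ratio within width strata 1.96). Among sites of 320 bp alone the difference was 5.49 percentage points and was not called (p 0.12). By MACS2 number, 121 OS without a core (38.4%) stood past the middle of that list against 34.3% (adjusted p 0.17), and within width strata the odds ratio was 0.871 (p 0.40). Another common OS within 5 kb was found for 39 (12.4%) and for 11.9% of the other OS (p 0.79).

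**Figure D5:**
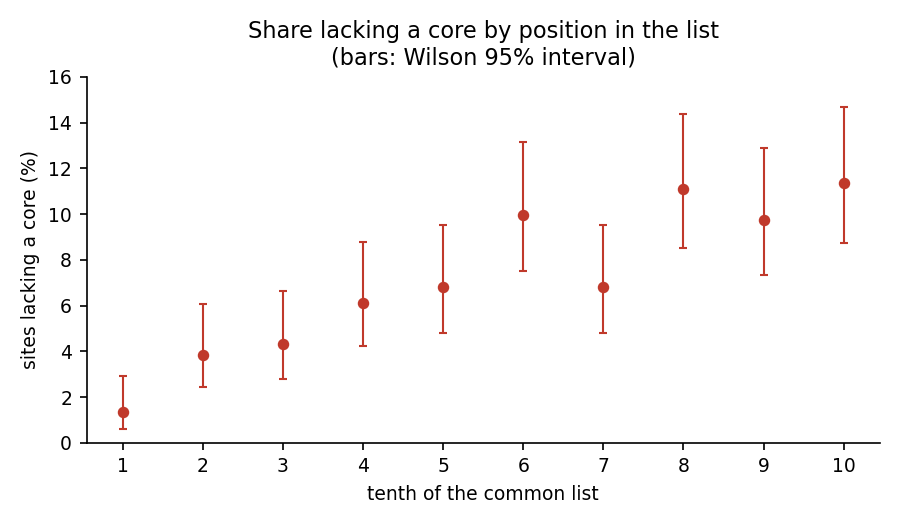
Share of common sites without a core (vertical axis, percent, bars are Wilson 95% intervals) in 10 equal parts of the common list (horizontal axis, from the first part to the last). The share is 1.36% in the first part and 11.4% in the last.

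The first 20 OS without a core, up to number 846, show how mixed they are. Of these, 15 held the T form and 5 did not, 6 lay within 1 kb of a TSS, 4 had CpG-rich flanks, 3 held a bare GATA, and 15 had a core in the MACS2 peak. OS 3 (chr2:128792790-128793136) had the lowest number of these OS in both lists, with MACS2 number 1, and had no WGATA or GATAR in its MACS2 peak of 732 bp. It lay 175 bp from a TSS of Zc3h6, in annotated coding sequence of Gm10762 on the other strand. It held the T form in 2 places, 1 bare GATA and a GC box. OS 99, 13220 bp from Fam169a, had neither the T form nor a bare GATA, and held a GC box and an ETS form. OS 312, 186 bp inside Pcgf1, a gene of a polycomb subunit, held a bare GATA and no T form.

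OS 762 was 235 bp from a TSS of Aqp9, the glycerol channel of hepatocytes, and OS 792 was in intron 1 of Slc25a37, the mitochondrial iron carrier mitoferrin. OS 473 lay in intron 2 of Pde2a, a cyclic nucleotide phosphodiesterase found in endothelium, and OS 399 in intron 24 of Bcas3. OS 822 was 99 bp from the TSS of Cdc42bpb and OS 739 was 447 bp inside Hint1. OS 831 was 23439 bp from Id2, an inhibitor of helix-loop-helix factors, and held an ETS form. OS 329 lay in Kazn, OS 506 in Tns1 and OS 785 in Mcc, each with the T form in 2 places. OS 334, 488, 612, 772, 824 and 846 were intergenic.

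A set of 6 OS was within 10 kb of genes in the study's tables of expression changes or of genes its text names with a GATA4 site. At Amotl2, which encodes an angiomotin-like scaffold of endothelial junctions, OS 503 lay in intron 6 and OS 2857 6695 bp upstream, each with 1 T form. OS 2048 lay 82 bp upstream of the TSS of Cish, a STAT-induced inhibitor of cytokine signalling, with its midpoint in an exon annotated as UTR of another Cish transcript. It held the T form, a GC box and an ETS form. OS 2375 lay between Alb and Afp, 4987 bp upstream of Afp, the fetal counterpart of albumin, and held 1 T form. OS 4170 lay 2322 bp inside Zfpm1, which encodes the GATA cofactor FOG1, and held neither the T form nor a bare GATA, with CpG-rich flanks and a core in its MACS2 peak of 2563 bp. OS 4387 lay 1002 bp upstream of Hsd17b2, a steroid dehydrogenase, and held the T form in 2 places with no core in the MACS2 peak. Whether any of these genes answers to the site was not tested.

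A TSS lay within 50 kb of 271 OS without a core, and these had 263 different nearest genes by name, of which 86 were also nearest to an OS with a core. Ets1, Amotl2, Cdc42bpb, Ak1, Man1a and Tmcc3 each had 2 OS without a core. By gene list, endothelial genes were nearest to 7 of these OS (2.22%), against 69 of all 4409 OS (1.57%). Among these were Ets1 (OS 1792 and 2527), Cdh5, the junctional VE-cadherin (OS 1996), and Acvrl1, the BMP receptor ALK1 (OS 2823). Plasma protein genes were nearest to 1 (Afp) against 11 of all OS, and glucose genes to 1 (Pfkl) against 9. Liver transcription factor genes were nearest to 1 (Zfpm1) against 24. None of these OS was nearest to a gene of the lipid and bile acid list, which had 25 of all OS, to a circadian gene (6 of all), to a lysosomal gene (10) or to a cytochrome P450 gene (21). With starts of protein-coding transcripts alone, 1 of 28 OS near a cytochrome P450 gene lacked a core, OS 2143 at Cyp2d10. Immediate early genes had 2 of 8 (Zfp36l2 and Btg2), and ribosomal protein names 2 of 22, of which 1 is a pseudogene. Kupffer and stellate genes and histone genes had none of either. These counts are small, and no list was tested.

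Of the 114 OS without the T form, most also lacked a bare GATA. There were 100 OS (31.7%) with neither the T form nor a bare GATA, and 62 of the 315 (19.7%) also had no GC box and no ETS form. Leaving out those with a core in the MACS2 peak, 11 OS had no T form, no bare GATA and no core in either peak, with a median list number of 3333. Of these 11, 7 lay within 1 kb of a TSS and 7 had CpG-rich flanks, among them OS at Mtf2, Mrpl39, Tob2, Lrp3, Aup1 and Tmem206. The other 4 were OS 1584 (2150 bp from Rab3a), OS 3756 (49763 bp from Stim2), OS 4165 (25837 bp from Flt1) and OS 4244 (1135 bp from Robo4). Flt1 and Robo4 encode receptors of endothelial cells. OS 2643 is printed whole as an example (mm9, plus strand). Its midpoint lay 37 bp from the nearest TSS of Mtf2, and its only capitals mark a GC box.
OS 2643, chr5:108494601-108494710, plus strand: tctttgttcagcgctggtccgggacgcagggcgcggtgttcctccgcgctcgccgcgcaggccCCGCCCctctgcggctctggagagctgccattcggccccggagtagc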

How the data were processed

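Liver GATA4 ChIP and input DNA were sequenced by the authors, who mapped reads to mm9 (Bowtie 0.12.7), retained unique alignments, ran SPP (modified) and MACS2 2.0.10 against pooled input, set thresholds for both lists by reproducibility between replicates and intersected them (bedtools 2.16.1). SPP coordinates were kept, and versions are from the submitters' processing notes. The deposited score is 1000 for every peak of all 3 lists. It carries no strength, so the planned comparisons by score were run on list position. Read depth per site is not given in the sources used here, so no value has a depth of its own. Intervals cover counting of sites only.

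Sequence came from NCBI Build 37 (mm9) and transcripts from GENCODE M1 of the same build, 95495 in all. Cores and motifs were matched exactly on both strands. Control windows had the width of the site, 5000 bp to its right, and of the 315 windows 4 overlapped a common site. Sites and windows were compared by exact McNemar tests, groups of sites by Fisher's exact test or over 5 width strata by the Cochran-Mantel-Haenszel test, all two-sided, with Benjamini-Hochberg adjustment and Wilson 95% intervals. A gene is the one whose TSS is nearest to the midpoint. Sites were named by rule: the first 20 in the list, those within 10 kb of a gene in the study's tables of expression changes or named in its text with a GATA4 site, the widest and narrowest, the first with each called motif, up to 4 per gene list, and the 10 words with the smallest adjusted p. Sites without any of the letters, and those with the T form 3 times, were named after their values were seen. The sites and lists were chosen with earlier results of these data known. Alternatives were other windows, widths, motif spellings, transcripts and parts of the list. Scripts were tested on simulated data and used scipy 1.17.1, statsmodels 0.14.6, numpy 2.4.6, pysam 0.24.0, samtools 1.23.1, matplotlib 3.10.9 and Python 3.11.15. A comparison of repeats was left out, since the reference marks none.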

Additional observations from a re-analysis of the deposited data

How the results depend on the processing

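Of 100 alternatives to 18 results, 72 kept the direction and the side of the threshold or stayed within the allowed range. The excess of the T form kept its call against windows and against the other sites under every alternative run. Against windows it ran from 38.4 to 49.5 percentage points, and the smallest excess over the other sites, 21.0 points, came from sites without WGATAR. The alternatives on the central 100 bp, on sites beyond 1 kb of a TSS, on GC classes and width, and, against the other sites, on the first part of the list up to number 2204 and on sites without WGATAR were chosen for the T form after the data were seen. The share lacking a core was 3.90% in 320 bp around the midpoint and 2.41% in 250 bp on either side of it, 14.3% in the central 100 bp, 17.1% without WGATAR, 4.49% in that first part, 5.68% in sites of 320 bp and 2.33% in the MACS2 list.

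The later list position was not called in sites of 320 bp (5.49 points). The MACS2 position was called for sites without WGATAR (5.31 points) and for those lacking a core in 320 bp (7.57 points), and turned within width strata (odds ratio 0.871). A neighbouring site turned for sites without WGATAR (-0.632 points) and at 1 kb (-0.831) and 10 kb (-0.127), none called. A core beyond the edge against the other sites was called at 50 bp (9.32 points) and for WGATAR alone (8.69). Against windows it turned at 200 bp (-6.35) and for sites lacking a core in 320 bp (-31.4), where the rule itself clears the flanks. The SPP-only difference turned in 320 bp (0.328 points). Single-base forms called fell from 7 to 4 with windows lacking a core and to 4 in that first part, and called words from 473 to 117, 28 (first part) and 315 (lacking a core in 320 bp). Against the other sites, called words fell from 470 to 33 within GC classes and 23 in that first part, and called motifs from 3 to 1 within GC classes (CAGCTG, adjusted p 0.038, not called before) and 1 within width (the GC box). In that first part the GC box was not called (adjusted p 0.074). Fewer sites entered the tests of the first part, of windows lacking a core and of the 320 bp. For the GC and width strata the cause was not tested.

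No paired analysis was possible because the labels list 1 ChIP and 1 input sample and the deposited lists hold no value for a single replicate. Leaving out a replicate was not possible for the same reason. The comparison of repeat-masked sites and its alternatives were not run, since the reference sequence marks no repeats. The deposited lists give no signal per site, so signal was not compared here.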
